A study of Macaca fascicularis with 22 samples.

Results

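Imprinted genes of growth control were examined in neonatal cynomolgus macaques (Macaca fascicularis) of lower and average birth weight. The genes were chosen by accession, as the array probes that carry the RefSeq transcript of 1 of 10 genes: CDKN1C, DLK1, MEST, PEG3, PEG10, PLAGL1, GRB10, PHLDA2, NDN and SGCE. Of these 10 genes, 7 were on the array with 1 probe each, among 20217 probes in all: DLK1 (NM_003836), MEST (NM_002402), PEG3 (NM_006210), PLAGL1 (NM_002656), PHLDA2 (NM_003311), NDN (NM_002487) and SGCE (NM_003919). The accessions given for CDKN1C, PEG10 and GRB10 were listed on 0 of the 22 arrays and these genes are not analysed here. All 7 probes passed the filter on dim signals, which left 17117 probes. PHLDA2 passed it although it was not well above background on any skeletal muscle array.

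An imprinted gene is transcribed mainly from the copy of 1 parent, through methylation marks set in the egg or the sperm, and many such genes act on growth before birth and around weaning. Paternally expressed genes such as DLK1, MEST, PEG3 and PLAGL1 are known mostly as promoters of growth or of progenitor cell fates, and maternally expressed genes such as PHLDA2, CDKN1C and GRB10 mostly as restraints on it. Imprinted genes lie in domains that share a control region. In the macaque annotation T2T-MFA8v1.1, which served here for gene order only, PEG10 and SGCE are neighbours, and CDKN1C lies beside PHLDA2 with 1 protein-coding gene between them. MEST lies next to COPG2, and NDN next to MAGEL2. The arrays measured total transcript and could not tell the parental copies apart.

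RNA came from the female offspring of 1 sire. Those of lower birth weight (LBW) fell between the 5th and 25th birth weight centiles, and those of average birth weight (ABW) between the 50th and 75th, so both groups lay within the normal range. There were 4 arrays in each birth weight group for skeletal muscle (biceps femoris) and for the samples labelled umbilical cord, and 3 in each for those labelled liver. The labels place all neonates at birth, and the study's methods place the collection of muscle and liver some days later. The sources used here do not tie arrays to animals.

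Each value below is a log2 signal of 1 array relative to the 75th percentile of that array, so that 0 marks this percentile and a step of 1 is a 2-fold difference. Values can be set side by side between arrays for 1 gene but not between genes, because probes differ in brightness. In RNA of a whole tissue, fewer cells of a type and less RNA per cell cannot be told apart. The 75th percentile signal before scaling lay between 315.5 and 2390 over the 22 arrays, and between 14596 and 17889 probes were well above background on an array. The number of arrays limits the precision. All ABW arrays of skeletal muscle were on 1 slide and all LBW arrays on another, so that in muscle the slide and the birth weight group cannot be told apart. The arrays labelled umbilical cord divided over 3 slides with no slide holding both birth weight groups. Of the liver arrays, 1 slide held the 3 ABW arrays and LBW replicate 1. No slide held muscle arrays beside those of another label, so slide and label cannot be told apart where muscle is compared with the others.

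Marker genes went against the labels of liver and umbilical cord. All 12 of 12 hepatocyte genes, ALB, TTR and APOA1 among them, were highest on all 8 arrays labelled umbilical cord. The mean of the 12 genes lay between 4.40 and 5.81 on the arrays labelled umbilical cord, between -7.04 and -6.39 on those labelled liver and between -6.93 and -1.97 on skeletal muscle. On the arrays labelled liver, 7 of the 12 never rose well above background. The 8 genes of connective tissue matrix on the array (of 9 listed) and the keratins KRT5 and KRT14 of stratified epithelium were instead highest on every array labelled liver. The 7 skeletal muscle genes measured of 8 were highest on every muscle array, as labelled. The tissues are therefore called the liver label and the umbilical cord label, and every difference between these labels below carries this mismatch.

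The level of most imprinted genes differed widely between tissue labels. MEST, PLAGL1, PHLDA2 and SGCE were higher on all 6 arrays of the liver label than on any of the other 16 arrays, a pattern met by 10.3% of all probes. The low level of PHLDA2 on muscle follows in part from the filter, which it did not pass through any muscle group. PLAGL1 was lowest, and NDN highest on average, with the umbilical cord label. MEST and SGCE were lowest on every muscle array (5.32% of all probes), and PLAGL1 on every array of the umbilical cord label (8.4%). DLK1 was also highest on average with the umbilical cord label, but its arrays overlapped between all labels.

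**Figure D1:**
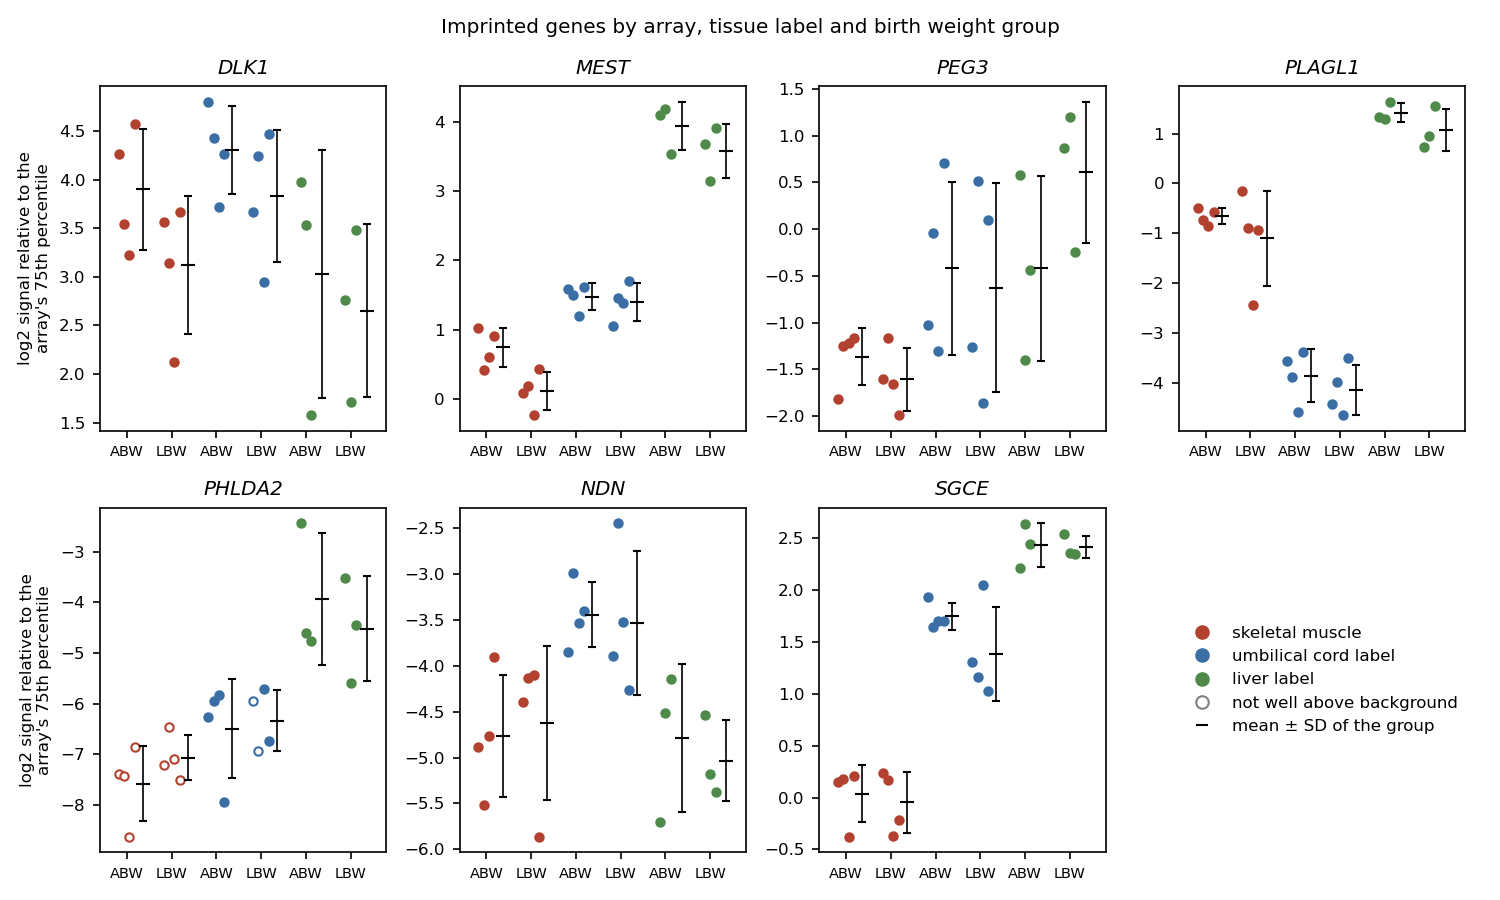
Each panel shows 1 imprinted gene, with the log2 signal relative to the array's 75th percentile on the vertical axis (ranges differ between panels) and the ABW and LBW groups of each tissue label on the horizontal axis. Points are single arrays, open where the probe was not well above background, and black marks give the group mean ± SD (n = 4, or 3 with the liver label). MEST, PLAGL1, PHLDA2 and SGCE stand apart with the liver label (green), while ABW and LBW overlap in every label for all 7 genes.

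MEST encodes an enzyme-like protein of the alpha/beta-hydrolase fold and is expressed from the paternal copy in mesodermal tissues. Its ABW arrays of the liver label read 4.10, 4.18 and 3.53 and its LBW arrays 3.68, 3.15 and 3.91. Those of the umbilical cord label read 1.58, 1.49, 1.20 and 1.62 in ABW and 1.05, 1.46, 1.38 and 1.70 in LBW. On skeletal muscle the ABW arrays read 1.03, 0.42, 0.61 and 0.91 and the LBW arrays 0.09, 0.18, -0.24 and 0.43. Every muscle array lay below every array of the other labels, and every umbilical cord label array below every liver label array. The label means were 3.76 ± 0.38 (SD, n = 6), 1.44 ± 0.22 (n = 8) and 0.43 ± 0.42 (n = 8). Muscle was lower than the liver label by a log2 difference of -3.33 ± 0.17 (SE, limma adjusted p = 1.32e-12). It was lower than the umbilical cord label by -1.01 ± 0.16 (limma adjusted p = 1.24e-05).

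PLAGL1, a zinc finger transcription factor that restrains cell cycling, had the widest difference between labels of the 7 genes. Its liver label arrays read 1.33, 1.29 and 1.64 in ABW and 0.73, 0.96 and 1.55 in LBW. Its muscle arrays read -0.50, -0.73, -0.84 and -0.56 in ABW and -0.16, -0.90, -2.43 and -0.93 in LBW. Its umbilical cord label arrays read -3.56, -3.89, -4.59 and -3.38 in ABW and -4.42, -3.99, -4.65 and -3.50 in LBW. The 3 labels did not overlap, in the order liver label, muscle, umbilical cord label. The umbilical cord label was below the liver label by -5.25 ± 0.29 (SE, limma adjusted p = 1.84e-12), and muscle above the umbilical cord label by 3.12 ± 0.26 (limma adjusted p = 1.91e-09). Skeletal muscle LBW replicate 3, at -2.43, was the lowest muscle array, the next being at -0.93. PLAGL2, a close relative of PLAGL1, was lower with the umbilical cord label than with the liver label by -0.45 ± 0.18 (SE, limma adjusted p = 0.0339), and muscle differed from them by 0.20 and -0.25 with neither test passed.

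SGCE encodes epsilon-sarcoglycan, a membrane protein of the complex that ties the cytoskeleton to the matrix. Its arrays read between 2.22 and 2.64 with the liver label, with a median of 2.40, between 1.03 and 2.05 (median 1.68) with the umbilical cord label, and between -0.38 and 0.24 (median 0.16) on muscle. The ranges did not overlap. Muscle was below the liver label by -2.43 ± 0.17 (SE, limma adjusted p = 1.35e-10) and below the umbilical cord label by -1.57 ± 0.16 (limma adjusted p = 2.19e-08), and the umbilical cord label below the liver label by -0.86 ± 0.17 (limma adjusted p = 0.000158). When arrays were scaled to spike-in controls, this last difference was -0.41 with a limma adjusted p of 0.593. That scaling moved the median of all probes between these labels to 0.57, from 0.13.

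Genes of the sarcoglycan complex of muscle ran the other way from SGCE. Which of them share a complex with SGCE in these tissues was not tested. SGCA, SGCB and SGCD, sarcoglycans of the muscle membrane complex, and SSPN (sarcospan) were all higher on muscle than with either other label, 4 of 4 measured from a list of 5, where 37.1% and 35.8% of all probes were higher on muscle than with the liver and umbilical cord labels. The SGCD arrays overlapped between muscle and the liver label. With the umbilical cord label SGCD was well above background on 1 of 8 arrays and SSPN on 6 of 8. Their median difference was 1.77 from the liver label (all probes 0.21) and 6.67 from the umbilical cord label (all probes 0.11). SGCA was above the umbilical cord label by 8.50 ± 0.20 (SE, limma adjusted p = 4.67e-18). SGCB was above it by 5.91 ± 0.19 (SE, limma adjusted p = 5.01e-16). Of these 5 genes, SGCE alone was lowest on muscle.

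PHLDA2 encodes a small protein of the pleckstrin homology type, maternally expressed and best known as a restraint on placental growth. It was well above background on all 6 arrays of the liver label, reading -2.44, -4.60 and -4.76 in ABW and -3.52, -5.58 and -4.45 in LBW. With the umbilical cord label it read -6.25, -5.96, -5.84 and -7.94 in ABW, all above background, and -5.95, -6.94, -5.70 and -6.75 in LBW, where the latter 2 were above background. A probe counted as above background when 1 of its 2 spots was. On ABW replicates 1 and 2 and on both LBW arrays so counted, only 1 spot was. ABW replicate 4, at -7.94, was the brightest of the 22 arrays, with a 75th percentile signal of 2390. All 8 muscle arrays were not well above background, with signals between -8.63 and -6.46. Muscle was at least 6.47-fold lower than the liver label, by a bound on these signals. For each muscle array the bound took the higher of its PHLDA2 signal and the dimmest signal of any probe told from background. The difference of the signals themselves was -3.10 ± 0.43 (SE, limma adjusted p = 2.76e-06), a test that used muscle signals not well above background. PHLDA2 had passed the filter through the liver label and the ABW arrays of the umbilical cord label. Its lower level on muscle follows in part from the filter, so the tests against muscle are not read as support for it. The umbilical cord label was lower than the liver label by -2.19 ± 0.43 (SE, limma adjusted p = 0.000152). With background corrected by a model of the median signals and an offset, these differences were -0.38 and -0.41 and neither passed (limma adjusted p = 0.254 and 0.218). Muscle was at least 1.42-fold lower than the umbilical cord label, a bound of the same kind. The difference of the signals themselves was -0.91 ± 0.40 (SE), with a limma adjusted p of 0.0516. This p fell under 0.05 when any of 8 arrays was left out: muscle ABW replicate 4, muscle LBW replicate 2, umbilical cord label ABW replicate 4 or LBW replicate 2, and liver label ABW replicate 1 or 3 or LBW replicate 1 or 2.

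NDN, a MAGE family protein of postmitotic neurons and other differentiating cells, was above background on all arrays. It read -3.85, -2.98, -3.53 and -3.41 in ABW and -3.89, -2.45, -3.52 and -4.27 in LBW with the umbilical cord label. On muscle it read -4.89, -5.52, -4.77 and -3.90 in ABW and -4.39, -4.14, -4.10 and -5.86 in LBW, and with the liver label -5.70, -4.52 and -4.14 in ABW and -4.54, -5.18 and -5.38 in LBW. The umbilical cord label was the highest on average and overlapped with both others. It was above the liver label by 1.42 ± 0.35 (SE, limma adjusted p = 0.00119), and muscle was below it by -1.21 ± 0.32 (limma adjusted p = 0.00247). Muscle and the liver label, the neighbours in this order, differed by 0.21 with a 95% confidence interval from -0.51 to 0.93 (limma adjusted p = 0.603). Among relatives of the other genes, PHLDA3, of the family of PHLDA2, was higher on muscle than with the umbilical cord label by 3.31 ± 0.38 (SE, limma adjusted p = 1.64e-07). MAGED1 and MAGEH1, relatives of NDN from the same family, were both lower on muscle than with the liver label, by -0.86 ± 0.22 and -1.38 ± 0.23 (limma adjusted p = 0.00219 and 3.04e-05).

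PEG3, a large zinc finger protein, varied widely within the liver and umbilical cord labels. Its liver label arrays read 0.58, -1.39 and -0.44 in ABW and 0.87, 1.20 and -0.24 in LBW. Its umbilical cord label arrays read -1.03, -0.04, -1.30 and 0.71 in ABW and -1.26, 0.51, -1.86 and 0.10 in LBW. On muscle it read -1.82, -1.25, -1.22 and -1.16 in ABW and -1.60, -1.17, -1.66 and -1.99 in LBW. The muscle arrays were the most alike and overlapped with the lowest arrays of both other labels. Muscle was below the liver label by -1.58 ± 0.40 (SE, limma adjusted p = 0.00172) and below the umbilical cord label by -0.96 ± 0.37 (limma adjusted p = 0.0277). The latter value rested on a margin. On muscle ABW replicate 1, 1 of the 2 spots read 4.25 before scaling and was not above background, against 451 at the other spot. Without that spot this array read -0.83, and the difference from the umbilical cord label was -0.84 (limma adjusted p = 0.0507). It also missed the threshold without muscle ABW replicate 1 (-0.89), muscle LBW replicate 4 (-0.90) or umbilical cord label ABW replicate 2 (-0.90), ABW replicate 4 (-0.78), LBW replicate 2 (-0.77) or LBW replicate 4 (-0.84).

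DLK1, a transmembrane relative of the Notch ligands that holds back differentiation of fat and muscle precursors, was bright on every array. On muscle it read 4.26, 3.55, 3.22 and 4.57 in ABW and 3.56, 3.14, 2.12 and 3.67 in LBW. With the umbilical cord label it read 4.80, 4.43, 3.72 and 4.27 in ABW and 3.67, 4.24, 2.95 and 4.47 in LBW. With the liver label it read 3.97, 3.53 and 1.58 in ABW and 2.76, 1.71 and 3.48 in LBW. All labels overlapped. The umbilical cord label was above the liver label by 1.23 ± 0.39 (SE, limma adjusted p = 0.00879), which missed the threshold under quantile normalization (0.72, limma adjusted p = 0.134). Muscle differed from the liver label by 0.67 (95% confidence interval -0.14 to 1.48) and from the umbilical cord label by -0.56 (-1.31 to 0.19). Of 5 genes of Notch signalling measured from a list of 6, JAG1, a canonical ligand, was lower with the umbilical cord label than with the liver label by -3.09 ± 0.21 (SE, limma adjusted p = 5.25e-11), and NOTCH2 lower on muscle than with the liver label by -2.41 ± 0.32 (limma adjusted p = 1.44e-06). NOTCH2 was well above background on 4 of 8 muscle arrays. NOTCH1 and HEY1 were higher on muscle than with the liver label, by 1.60 ± 0.36 and 1.99 ± 0.25 (limma adjusted p = 0.000605 and 7.54e-07).

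Counted together, 5 of the 7 imprinted genes differed between muscle and the liver label at an adjusted p under 0.05, all lower on muscle, where 65.3% of all probes passed, 37.1% as higher and 28.1% as lower. PHLDA2 is among these 5, on muscle signals not well above background, and its direction follows in part from the filter. Between muscle and the umbilical cord label 5 of 7 passed, 1 higher and 4 lower, beside 64.9% of all probes (35.8% higher and 29.1% lower). Between the umbilical cord label and the liver label 6 of 7 passed, 2 higher and 4 lower, beside 66.9% (35.6% and 31.3%). The shares of genes that passed lay near those of all probes. The median differences of the 7 genes were -2.13, -0.96 and -0.86, beside 0.21, 0.11 and 0.13 over all probes, and were the same with PHLDA2 on muscle at its bound.

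**Figure D2:**
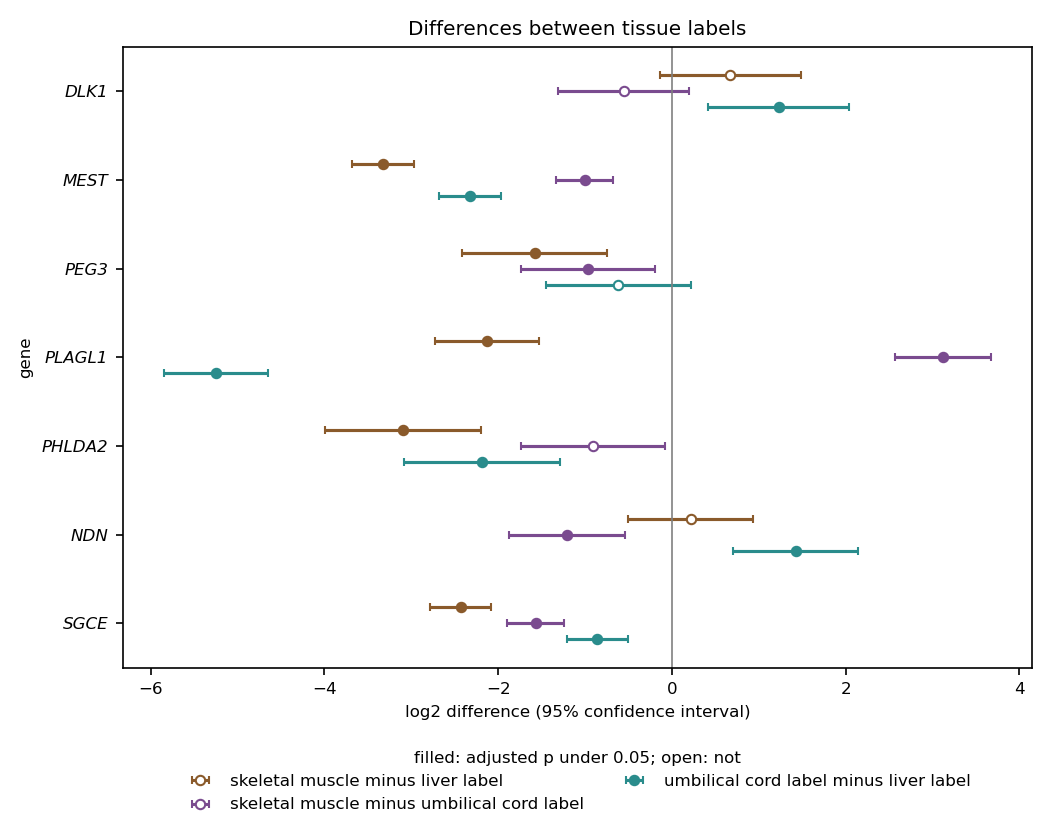
The log2 difference between tissue labels with its 95% confidence interval is plotted for each imprinted gene, from the limma fit of all 22 arrays. Filled points have an adjusted p under 0.05. The values of PHLDA2 that involve muscle use signals not well above background and follow in part from the filter. For MEST, PLAGL1, PHLDA2 and SGCE all 3 intervals leave out 0, while those of DLK1 and NDN cross it between muscle and the liver label. The point of PHLDA2 between muscle and the umbilical cord label is open all the same.

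Other imprinted genes, among them neighbours of the 7, were followed from a list of 29 accessions, of which 16 were on the array and 14 passed the filter. In the domain of PHLDA2, ASCL2 and OSBPL5 shared its high level with the liver label. The umbilical cord label was lower for OSBPL5 by -4.13 ± 0.29 (SE, limma adjusted p = 9.77e-11). It was lower for ASCL2 by -4.46 ± 0.37 (SE, limma adjusted p = 1.37e-09), where ASCL2 was well above background on 3 of 8 arrays of the umbilical cord label and 5 of 8 of muscle. ASCL2 is a transcription factor of trophoblast and stem cells, and OSBPL5 a lipid transfer protein. KCNQ1, a potassium channel gene of the same domain, was instead highest with the umbilical cord label, by 0.76 ± 0.20 over the liver label (limma adjusted p = 0.00223). Next to MEST, COPG2, a coat protein of transport vesicles, differed by -0.13, -0.14 and 0.01 between muscle and the liver label, muscle and the umbilical cord label, and the latter and the liver label, with no test passed. CPA4, a carboxypeptidase with 3 protein-coding genes between it and MEST, was highest with the liver label, muscle being lower by -5.24 ± 0.72 (SE, limma adjusted p = 2.46e-06). Near SGCE, TFPI2, a protease inhibitor known from placenta, was not well above background on any array of muscle or the umbilical cord label, where it was at least 18.7-fold and 22.3-fold lower than with the liver label. It had passed the filter through the liver label alone, and these bounds are given with no test.

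Next to NDN, MAGEL2, a MAGE family protein of the same domain, was also highest with the umbilical cord label, which lay above the liver label by 2.77 ± 0.28 and from which muscle differed by -3.82 ± 0.26 (SE, limma adjusted p = 3.49e-08 and 6.66e-11). MKRN3, further along this domain, was not well above background on any array. ATP10A, a lipid flippase with 9 protein-coding genes between it and NDN, was well above background on all 6 arrays of the liver label, but on 2 of 8 of muscle and 1 of 8 of the umbilical cord label. Its muscle signal was lower than with the liver label by -1.40. It had passed the filter through the liver label alone, and this difference is given with no test. ZIM2, known as the neighbour of PEG3, was highest on muscle, above the liver label by 1.69 ± 0.26 (limma adjusted p = 1.2e-05), where PEG3 was lowest. Of the 14 genes of this list that passed the filter, 8 were lower and 4 higher on muscle than with the liver label, beside 28.1% and 37.1% of all probes. TFPI2 and ATP10A are among the 8, and their direction follows in part from the filter, so the count is not read as a result.

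**Figure D3:**
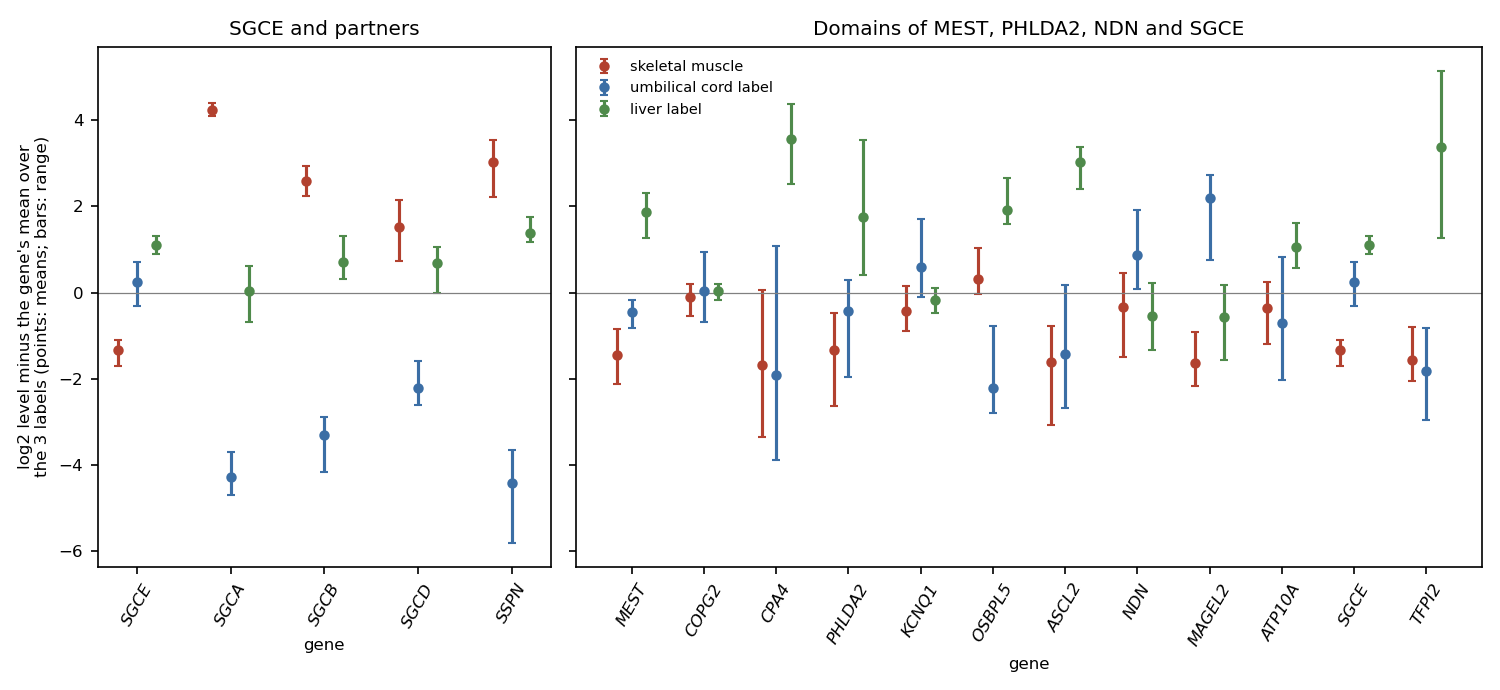
The mean log2 level in each tissue label is plotted after subtraction of the gene's mean over the 3 labels, with bars from the lowest to the highest array (n = 8, 8 and 6). Left, SGCE was lowest on skeletal muscle (red) where the means of SGCA, SGCB, SGCD and SSPN were highest. Right, genes of the domains of MEST, PHLDA2, NDN and SGCE, each imprinted gene followed by its neighbours, with the means of COPG2 close together while MEST was highest with the liver label (green).

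For the imprinted genes missing from the array, only their partners could be read. IGF1R, a receptor whose signalling GRB10 restrains, was lowest with the umbilical cord label, -3.52 ± 0.28 below the liver label (SE, limma adjusted p = 9.37e-10), while INSR, the insulin receptor, was 1.42 ± 0.27 higher on muscle than with the liver label (limma adjusted p = 0.000122). IGF1R was well above background on 5 of 8 arrays of the umbilical cord label. Among 7 genes of the cell cycle step that CDKN1C inhibits, the cyclin genes CCND1 and CCNA2 were lower on muscle than with the liver label by -3.02 ± 0.22 and -2.91 ± 0.24 (limma adjusted p = 3.47e-10 and 1.74e-09). CDKN1A, a relative of CDKN1C, was lower there too by -2.40 ± 0.40 (limma adjusted p = 2.92e-05), and CCNE1 was 2.42 ± 0.27 higher on muscle than with the umbilical cord label (limma adjusted p = 1.02e-07).

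Birth weight was compared next, LBW minus ABW within each label. By limma, 0 of the 7 imprinted genes passed an adjusted p under 0.05 in muscle, 0 with the liver label and 0 with the umbilical cord label, beside 0%, 0% and 0.625% of all probes. None passed for the mean of the 3 differences (0.888% of all probes) or for a difference of the birth weight effect between labels (1.01%). At an unadjusted p under 0.05 the counts were 1, 0 and 0 within the labels and 1 for the mean, where 14.7%, 5.99%, 8.94% and 13.6% of all probes passed, and 0 for the difference between labels (10.1%). The methods' t-test and two-way test gave the same counts, each with 0 after adjustment. The gene was MEST each time. LBW and ABW arrays overlapped for all 7 genes in all 3 labels.

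MEST on LBW muscle averaged 0.12 ± 0.28 (SD, n = 4) against 0.74 ± 0.27 (n = 4) in ABW. The highest LBW array, at 0.43, just passed the lowest ABW array, at 0.42, and the other LBW arrays lay below all ABW arrays. The difference was -0.62 ± 0.21 (SE, 95% confidence interval -1.11 to -0.14, limma adjusted p = 0.221). Limma's unadjusted p was 0.0169 and the two-sided exact permutation test gave p = 0.0571, where 0.0286 is the smallest that 4 against 4 arrays allow. The difference was -0.36 with the liver label (-1.03 to 0.32), with -0.25 within the 1 slide that held both groups, and -0.08 with the umbilical cord label (-0.67 to 0.52). The mean over labels was -0.35 ± 0.14 (SE, -0.64 to -0.07, limma adjusted p = 0.267). This fit took the arrays as independent, and its interval does not allow for arrays of different labels from the same neonate. On the same muscle arrays the mean of 8 matrix genes lay between 1.02 and 1.80 in LBW and between 1.54 and 2.50 in ABW. The mean of 4 erythroid genes, of 6 listed, lay between -1.85 and -1.04 in LBW and between -3.27 and -1.81 in ABW. The mean of 3 leukocyte genes, of 4 listed, lay between -4.08 and -3.37 in LBW and between -3.94 and -2.18 in ABW. The part of these lists in the MEST values was not tested.

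DLK1 had the lower LBW mean in all 3 labels. On muscle the means were 3.12 ± 0.71 in LBW and 3.90 ± 0.62 in ABW (SD, n = 4 each), a difference of -0.78 (95% confidence interval -1.69 to 0.14). With the umbilical cord label the difference was -0.47 (-1.34 to 0.39) and with the liver label -0.38 (-2.10 to 1.34). Each interval covered 0. Limma's adjusted p was 0.425, 0.732 and 0.972 in turn.

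PLAGL1 also had the lower LBW mean in all 3 labels, with differences of -0.44 on muscle (95% confidence interval -1.38 to 0.49), -0.34 with the liver label (-0.96 to 0.28) and -0.29 with the umbilical cord label (-1.10 to 0.53). On muscle the SD of LBW was 0.95, against 0.16 in ABW. The muscle difference rested on LBW replicate 3, without which it was -0.00225. PEG3 was 1.03 higher in LBW with the liver label (-0.37 to 2.42), with 2 of the 3 LBW arrays above all ABW arrays, and differed by -0.24 on muscle and -0.21 with the umbilical cord label, where both intervals covered 0. The lowest limma adjusted p among these 6 differences was 0.668. Without the failed spot of muscle ABW replicate 1, PEG3 differed by -0.49 on muscle (limma adjusted p = 0.335, unadjusted 0.0480).

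For SGCE no birth weight difference passed. The differences were -0.09 on muscle (95% confidence interval -0.58 to 0.41), -0.02 with the liver label (-0.47 to 0.43) and -0.36 with the umbilical cord label (-1.02 to 0.29). In the last, LBW replicate 3 was the highest of the 8 arrays and the other 3 LBW arrays were the lowest. NDN differed by 0.15 (-0.88 to 1.18), -0.25 (-1.31 to 0.81) and -0.09 (-0.99 to 0.81) in the same order. For PHLDA2, which was not well above background on muscle, the liver label gave -0.59 (-2.41 to 1.24), with 1 ABW array at -2.44 above all others, and the umbilical cord label 0.16 (-0.94 to 1.27).

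**Figure D4:**
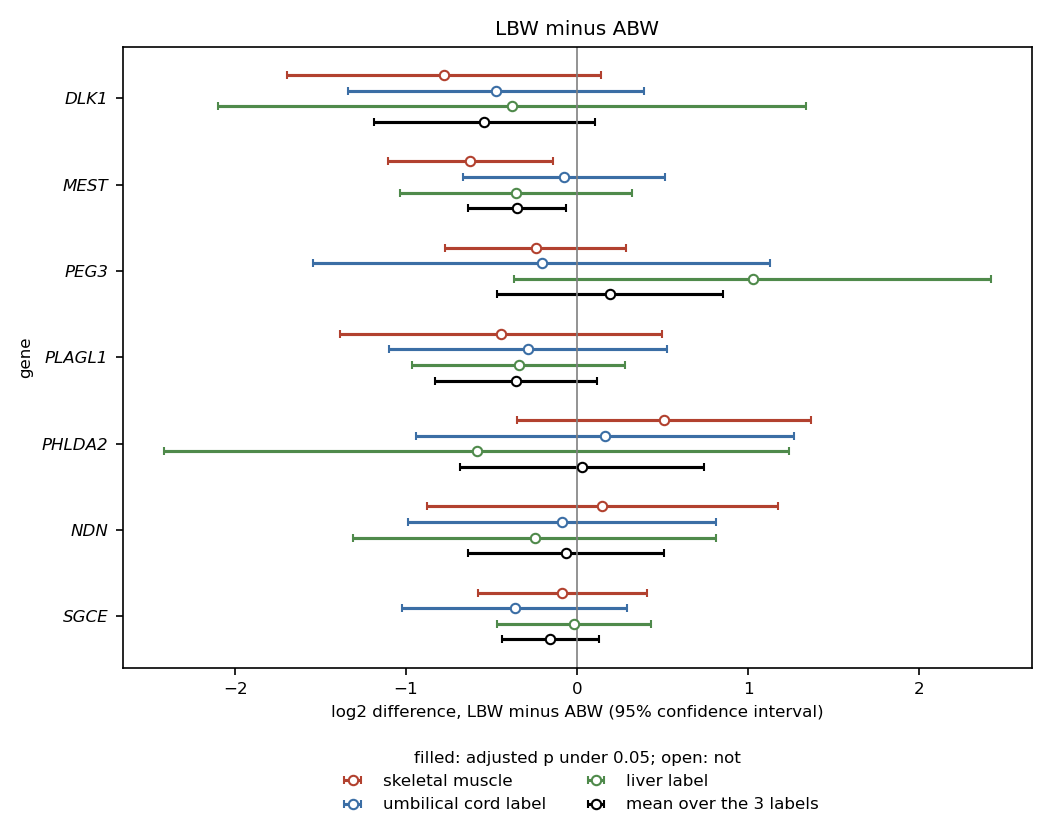
The log2 difference LBW minus ABW is plotted with its 95% confidence interval for each imprinted gene in each tissue label and as the mean of the 3 labels. All points are open, since no adjusted p was under 0.05, and the intervals that leave out 0 are those of MEST on skeletal muscle and in the mean. Intervals of the mean take the arrays as independent.

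The median of the 7 differences was -0.24 on muscle, -0.34 with the liver label and -0.21 with the umbilical cord label, beside 0.07, 0.06 and -0.01 over all probes, and 2, 1 and 1 of the 7 differences were above 0. None of the 14 other imprinted genes passed for birth weight in a label or in the mean, with 1, 0, 1 and 0 at an unadjusted p under 0.05. Their median differences were 0.18, -0.10 and -0.13. In 4 further lists (sarcoglycans, Notch signalling, the cell cycle step and insulin receptor signalling) 0 genes passed by limma in these comparisons. At an unadjusted p under 0.05 there was 1 on muscle, 1 with the liver label, 0 with the umbilical cord label and 1 in the mean.

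PHLDA1, a relative of PHLDA2, was the exception among the genes related to the 7. At 1 of its 2 probes the birth weight difference itself differed between labels (limma adjusted p = 0.00577), but the probe had passed the filter through the groups where it was high alone, so this test follows in part from that choice. LBW was at least 1.51-fold higher than ABW on muscle, at least 1.55-fold lower with the umbilical cord label, and lower by -0.80 ± 0.20 (SE) with the liver label, without overlap in each. None of the 3 passed within its label (limma adjusted p = 0.130, 0.325 and 0.748), and groups without overlap made up 10.5%, 5.85% and 12% of all probes. The probe was dim. On muscle it was well above background in LBW alone (0 of 4 against 4 of 4 arrays), with the liver label on all 3 ABW arrays and 1 LBW array, and with the umbilical cord label in ABW alone (4 of 4 against 0 of 4). The second PHLDA1 probe gave 0.14, -0.54 and 0.03, with overlap in every label, and an adjusted p of 0.936 for the same test.

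The 7 genes differed in how much they varied between arrays of 1 group. The within-group SD was 0.28 for SGCE and 0.29 for MEST, 0.55 for PLAGL1, 0.68 for NDN, 0.77 for DLK1, 0.79 for PEG3 and 0.86 for PHLDA2. The median over all probes was 0.47. Thus 85.6% of probes varied more than MEST, and 15.3% more than DLK1.

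Array by array, DLK1 and MEST moved together. Each value was taken as its deviation from the mean of its group, which removes the labels and birth weight groups, and all 21 pairs of the 7 genes were compared. For DLK1 and MEST Pearson's r was 0.84 and Spearman's rho 0.85 over the 22 arrays. A permutation test that shuffled arrays within groups 100000 times gave p = 0.00043 for r and 0.00018 for rho, or 0.00903 and 0.00378 after Benjamini-Hochberg adjustment over the 21 pairs. The test takes the arrays as independent. Arrays of different labels may come from the same neonate, and these p-values do not allow for that. Without the 2 arrays farthest from the median of DLK1, r was 0.78. Within the labels r was 0.84 on muscle (n = 8), 0.95 with the liver label (n = 6) and 0.63 with the umbilical cord label (n = 8). On muscle ABW replicates 1 and 4 were the highest of their group in both genes, and LBW replicate 3 the lowest and replicate 4 the highest of theirs. With the liver label ABW replicate 3 and LBW replicate 2 were the lowest of their groups in both.

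Among all 17116 other probes, MEST had the highest such correlation with DLK1, and DLK1 the highest with MEST. They kept this mutual first rank under 6 of 7 other settings. When arrays were scaled to spike-in controls, r rose to 0.91, but so did that of many probes, and DLK1 then ranked 5067th for MEST. Without liver label ABW replicate 3 or LBW replicate 2 the ranks fell to between 2 and 5, and r was 0.80 and 0.81. The pair was singled out after the values of all 21 had been seen. The deviations of the 8 marker lists gave r between -0.31 (hepatocyte) and 0.33 (matrix) for DLK1, and between -0.34 (endothelial) and 0.18 (matrix) for MEST.

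**Figure D5:**
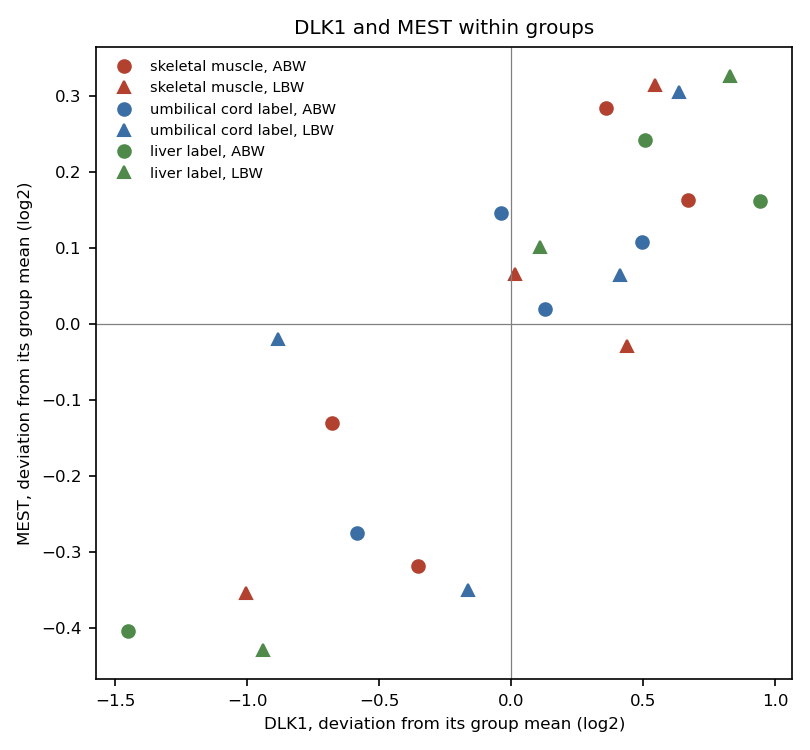
Each point is 1 of the 22 arrays, with the deviation of DLK1 from its group mean on the horizontal axis and that of MEST on the vertical axis, both in log2 units. Colours give the tissue label, circles ABW and triangles LBW. The points follow a rising line in all 3 labels (r = 0.84).

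No other pair passed after adjustment. PLAGL1 came next, with r = 0.53 against DLK1 (permutation p = 0.00882, adjusted p = 0.0926) and 0.50 against MEST (permutation p = 0.0275, adjusted p = 0.192). Its r with DLK1 was 0.78 on muscle and 0.84 with the umbilical cord label, but -0.00 with the liver label. PEG3 and SGCE gave -0.47 (permutation p = 0.0531, adjusted p = 0.279), and -0.26 without the 2 arrays farthest from the median of PEG3.

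Over all 22 arrays with the labels left in, the probes most like an imprinted gene mainly shared its order of labels. Those closest to SGCE were TMEM14A and PLS3 (r = 0.98 each, n = 22), TMEM14A encoding a membrane protein and PLS3 an actin-bundling protein. CPOX, an enzyme of heme synthesis, was second for DLK1 at 0.77, behind the transcript NM_184231 at the same rounded value. The closest for MEST reached 0.97, for PLAGL1 0.98, for PHLDA2 0.92, for NDN 0.88 and for PEG3 0.82. These values describe 3 labels of unequal level and carry no test.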

How the data were processed

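Total RNA was labelled with 1 dye (Cy3) and hybridised to 22 Agilent rhesus macaque arrays. The authors deposited each array's scanner output, in which the intensity of each spot is Agilent's processed signal, background-corrected by Feature Extraction 10.1.1.1, or 10.5.1.1 for 1 slide, per the file headers. That slide held umbilical cord label ABW replicates 3 and 4 and no LBW array. Within the umbilical cord label, version and birth weight group are therefore partly bound together. The table of values the authors deposited is on a log2 scale and centred for each probe within a tissue, so it served only as an alternative within labels.

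The 2 spots of a probe were averaged, leaving out an outlier spot when the other was sound, and log2 of the signal minus the array's 75th percentile was taken. Probes well above background on 75% or more of a group's arrays, in at least 1 of the 6 groups, were kept. Groups were compared by limma 3.58.1 (statmod 1.5.0, R 4.3.3), within each label for birth weight and over all 6 groups for the mean, the difference between labels of the birth weight effect, and the label differences. Benjamini-Hochberg adjustment ran over all 17117 probes, with a threshold of 0.05. The normexp alternative used an offset of 50 on the median signals. The fits were tested on simulated data. The study's methods describe 4 neonates in each birth weight group, and the labels do not name the animal of an array. The main fits therefore took the arrays as independent.

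The genes and lists were chosen with earlier results of these data known. Gene names come from the accessions. From each list other than the marker lists, genes that passed for birth weight were named. So were up to 4 genes with the largest differences between labels that did not overlap, besides domain neighbours and the 2 probes most like each imprinted gene. Of the 12 hepatocyte marker genes, 2 passed as lower in LBW with the umbilical cord label (0.625% of all probes passed). In the mean 2 passed as lower (0.888%), and 2 passed for the difference between labels of the birth weight effect (1.01%). PLAGL2, MAGED1 and MAGEH1 were chosen after their values were seen. Some items of the lists are not reported here. No sequence is shown, because no sequence source was used here.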

Additional observations from a re-analysis of the deposited data

Results flagged for a closer look

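Among the 28 groups of 4 arrays tested, 3 held an array far from the others of its group, by Dixon's ratio of the gap at the end of the group to the group's range. Chance gives about 1 in 20 groups. PEG3 on muscle ABW replicate 1 was at -1.82, with the nearest array at -1.25 (gap over range 0.866), and this is the array with the failed spot. NDN on muscle LBW replicate 4 was at -5.86, with the nearest at -4.39 (0.833). SGCE on muscle ABW replicate 3 was at -0.38, with the nearest at 0.15 (0.904).

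At 1 probe of PHLDA1 the birth weight difference differed between tissue labels (limma adjusted p = 0.00577), higher in LBW on muscle and lower with the other labels. The probe was near background and had passed the filter through the groups where it was high alone. The second probe of the gene gave an adjusted p of 0.936.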

How the results depend on the processing

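Under every alternative run, 0 imprinted genes passed for birth weight. For the label differences, 4 to 5, 5 to 7 and 5 to 6 passed (muscle against the liver label, muscle against the umbilical cord label, and the umbilical cord label against the liver label), and 5, 4 to 6 and 6 when arrays were left out in turn. Deviations of same-numbered ABW and LBW arrays, which are of different neonates, correlated between -0.22 and 0.30. Those of same-numbered arrays of different labels in 1 birth weight group correlated between -0.29 and 0.38. These values cannot tell whether arrays with the same replicate number share an animal, since tissues of 1 animal need not deviate alike. With the replicate block, 0 passed for birth weight and 5, 6 and 6 for the labels, the added gene being PHLDA2 between muscle and the umbilical cord label, where its muscle signals were not well above background. Of 401 birth weight values under other settings, 25 changed sign, none of them called. The cause of these changes was not tested. On muscle these were PEG3 with the authors' values (0.35), PHLDA2 (-0.033) and NDN (-0.39) with spike-in scaling, NDN with quantile normalization (-0.056) and SGCE with array weights (0.013). With the liver label they were PHLDA2 (0.41), NDN (0.24) and SGCE (0.10) with slide as a block and within 1 slide alike, and SGCE with median (0.001471) and spike-in scaling (0.079). With the umbilical cord label they were PLAGL1 (0.30) and NDN (0.33) with normexp, and PHLDA2 with spike-in scaling (-0.22), array weights (-0.093) and the ABW arrays of 1 slide (-0.23). In the mean they were PEG3 with spike-in scaling (-0.082), NDN with normexp (0.13), and PHLDA2 with quantile normalization (-0.037), spike-in scaling (-0.25), a floor (-0.068), array weights (-0.005574) and without 1 slide of the umbilical cord label (-0.10). Between labels, DLK1 (-0.077) and NDN (-0.54) changed sign between muscle and the liver label with spike-in scaling, and PHLDA2 between muscle and the umbilical cord label with normexp (0.033). With spike-in scaling the median of all probes moved to -0.54, -1.08 and 0.57 between labels and to -0.47, 0.16 and -0.39 for birth weight, and DLK1 then passed between muscle and the umbilical cord label (-1.75).

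Leaving out single arrays changed the sign of 32 of 308 birth weight values and 1 of 462 label differences. The ranges were, on muscle, -0.10 to 0.56 for NDN and -0.22 to 0.022 for SGCE. With the liver label they were -1.10 to 0.094 for DLK1, -1.09 to 0.16 for PHLDA2, -0.70 to 0.073 for NDN and -0.13 to 0.086 for SGCE. With the umbilical cord label they were -0.18 to 0.040 for MEST, -0.59 to 0.20 for PEG3, -0.32 to 0.38 for PHLDA2 and -0.45 to 0.16 for NDN. In the mean they were -0.14 to 0.28 for PHLDA2 and -0.21 to 0.075 for NDN, and NDN between muscle and the liver label ran from -0.014 to 0.42. Signals near background limit PHLDA2.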
